A study of Mus musculus with 12 samples.

Results

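The 500 transcripts described here are the antisense long non-coding RNAs (lncRNAs) among the 2789 annotated lncRNA transcripts of a mouse pain series. They were taken by the gene type given in the deposited table, leaving out 6 well-studied lncRNA genes by symbol, none of which was found among them, and they belong to 388 genes. RNA was sequenced from the trigeminal ganglion (TG), which holds the cell bodies of the sensory neurons of face and jaw, and from the caudal part of the spinal trigeminal nucleus (Sp5C), the brainstem region where many of those neurons end. The series is titled as a study of chronic inflammatory pain of the temporomandibular joint. All libraries came from C57BL/6 mice, a common inbred strain, aged 8 weeks per the labels and described as wild type. There were 4 groups of 3 libraries: STG and CTG from the ganglion, SSp5C and CSp5C from the brainstem. The meaning of S and C is not in the labels, and effects are reported with S subtracted from C. Whether the 3 libraries of a group stem from different mice is not in the labels either, and p-values then reflect only how much these samples vary, which may be technical.

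An antisense lncRNA is transcribed from the DNA strand opposite to another gene. Some start head to head with a protein-coding gene, from a shared or neighbouring promoter, and others begin inside the gene or run into its end. A few, such as Kcnq1ot1 and Airn, are known to silence their imprinted neighbours, and others, such as those of the Hox clusters, lie among genes that set the position of cells along the body axis. By GENCODE M21 on build GRCm38, where all 500 transcripts were found by their identifier, 380 overlapped a protein-coding gene on the other strand, called the partner here. Of these, 183 covered the partner's start, 95 its end, 90 lay inside it and 12 spanned it, whereas 120 overlapped none. Exons of both genes overlapped in 274 of the 380. The library kit keeps strand, but whether reads were counted by strand is not given in the sources used here. Reads over shared exons therefore cannot be told apart between an antisense transcript and its partner, and the number of shared exonic bases is given beside each pair.

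The sequences below show where some of the antisense transcripts meet the coding sequence of their partner. These 2 are examples, not the only ones, where the transcript differed between the tissues and the shared bases lie wholly in coding exons. Each is a stretch of the spliced antisense transcript, read 5′ to 3′ from the GENCODE M21 transcripts, with the bases that lie over a coding exon of the partner in capitals and up to 30 transcript bases on either side in lower case. Gm13205 shares 122 bases with Casz1 (chr4:148948793-148948914, minus strand, GRCm38) and Gm9962 shares 148 with Gabra5 (chr7:57408762-57408909, plus strand).
Gm13205: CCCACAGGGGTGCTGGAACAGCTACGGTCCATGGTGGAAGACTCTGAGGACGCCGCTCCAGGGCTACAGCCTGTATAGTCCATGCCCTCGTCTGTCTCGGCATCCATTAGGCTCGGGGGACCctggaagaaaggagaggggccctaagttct
Gm9962: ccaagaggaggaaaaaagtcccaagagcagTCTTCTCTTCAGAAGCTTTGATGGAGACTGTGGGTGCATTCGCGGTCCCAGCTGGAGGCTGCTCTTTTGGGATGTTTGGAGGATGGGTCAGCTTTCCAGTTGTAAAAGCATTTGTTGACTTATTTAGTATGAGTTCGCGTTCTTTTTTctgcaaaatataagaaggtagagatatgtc

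The promoter windows of C130021I20Rik and Kcnq1ot1 are shown because the first lies beside the start of Lmx1b and was lower in TG as Lmx1b was, and the second had among the smallest p-values for a C against S effect that differed between tissues. They hold 250 bases before and 50 after the RefSeq start (GRCm38.p6), at chr2:33640943-33641242 on the plus strand and chr7:143296498-143296797 on the minus strand. Capitals mark CCAAT on either strand, a sequence found in many promoters. The window of Kcnq1ot1 held 3 such matches and that of C130021I20Rik held 1.
C130021I20Rik: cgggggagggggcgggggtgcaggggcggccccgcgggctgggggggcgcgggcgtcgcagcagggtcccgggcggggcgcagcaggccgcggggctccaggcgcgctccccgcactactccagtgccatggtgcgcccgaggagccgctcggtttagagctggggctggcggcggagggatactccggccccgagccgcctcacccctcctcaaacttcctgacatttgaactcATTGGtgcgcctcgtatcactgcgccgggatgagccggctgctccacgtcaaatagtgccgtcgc
Kcnq1ot1: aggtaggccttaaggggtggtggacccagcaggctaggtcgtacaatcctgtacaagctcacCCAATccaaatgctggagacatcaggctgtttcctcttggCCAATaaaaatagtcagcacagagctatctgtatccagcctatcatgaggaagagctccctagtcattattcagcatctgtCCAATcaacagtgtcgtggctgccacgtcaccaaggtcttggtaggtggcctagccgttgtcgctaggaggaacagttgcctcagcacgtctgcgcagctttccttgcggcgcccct

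Most antisense transcripts were scarce. Their median level, as the mean FPKM over the 12 libraries (fragments scaled for transcript length and library size), was 0.436, against 0.531 for intergenic lncRNAs (lincRNAs) and 0.606 over the whole lncRNA table. Only 116 of the 500 reached a mean of 1 and 13 a mean of 4. There were 333 transcripts above 0 in all 12 libraries and 1 listed at 0 in all of them. Their median spliced length was 848 bases, from 220 to 93092, with a median of 2 exons. The FPKM of the 500 summed to 376 ± 23.7 in TG and 451 ± 15.1 in Sp5C (SD over n = 6), and the ranges, 345 to 398 and 431 to 466, did not overlap. Across the 500, FPKM correlated between libraries at r = 0.597 to 0.880 within a group, 0.664 to 0.878 within a tissue across the letters, and 0.167 to 0.504 across the tissues. FPKM values carry no read numbers, so no counting error is given.

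The most abundant member was the main transcript of Tug1, a lncRNA found in many tissues, at 16.4 ± 3.49 FPKM in TG against 17.4 ± 2.17 in Sp5C (SD over n = 6). The tissues overlapped, and the difference of -0.10 ± 0.14 (SE) did not pass (limma adjusted p = 0.557). Differences are on the log2(FPKM + 0.5) scale throughout for lncRNAs, which understates changes of scarce transcripts. A transcript of 4933431E20Rik, which starts 392 bases from the start of the glutathione transferase gene Gstm5, had 5.68 ± 1.68 and 10.3 ± 4.25 and was lower in TG (limma adjusted p = 0.0392). Gm13375, 173 bases from the start of Arhgap21, had 5.54 ± 0.869 and 7.34 ± 1.03, and 2810001G20Rik, 16 bases from that of the haem synthesis gene Cox10, had 3.12 ± 1.13 and 5.81 ± 1.29. Both were lower in TG (limma adjusted p = 0.0193 and 0.00174). With the S libraries alone only the 4933431E20Rik transcript of these 3 passed (limma adjusted p = 0.000502), and with the C libraries alone only 2810001G20Rik (limma adjusted p = 0.00562). The others of the 10 most abundant, Gm13425, Gm26673, Gm13629, Rab10os and Gm26782, are described below. The main transcript of Gt(ROSA)26Sor, the locus used for many mouse transgenes, was at 4.55 ± 1.2 FPKM in TG against 4.43 ± 1.14 in Sp5C (SD over n = 6) and did not pass between the tissues (limma adjusted p = 0.928).

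TG and Sp5C differed in 110 of the 227 antisense transcripts that could be tested, or 48.5%, against 53.7% of all lncRNA transcripts. These had a mean of at least 0.5 FPKM, a filter that a transcript can pass through 1 tissue alone. Of the 227, 39 were higher in TG (28.2% of the 1611 lncRNA transcripts tested were) and 71 were lower in TG (25.5% of all). As shares of members, these are 17.2% and 31.3%. Other classes differed: 27.0% of lincRNAs were higher and 34.5% lower, and 26.5% and 31.1% of the class labelled processed transcript. In the class labelled TEC, whose evidence is still to be tested experimentally, the shares were 34.5% and 16.5%. A larger share lower than higher in TG was thus not particular to antisense transcripts. Tissues did not overlap in 23 higher and 40 lower members, or 27.8% of the 227, against 31.5% of all lncRNAs tested. The median difference was -0.16 over the members and 0.04 over all tested, with -0.07 for lincRNAs, -0.08 for processed transcripts and 0.14 for TEC. With no filter, 89 were higher and 143 lower of 499, but the shares of all lncRNA transcripts under that setting are not given. Leaving out any 1 library gave 36 to 41 higher and 63 to 72 lower. The test was limma on all 12 libraries, with Benjamini-Hochberg adjustment over all 1611 and a threshold of 0.05. In bulk tissue, fewer cells of a type and less RNA per cell cannot be told apart.

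Marker genes of cell types went with the tissue labels. All 7 sensory neuron markers were found, and their FPKM summed to 1077 to 1254 in TG libraries and 13.6 to 54.3 in Sp5C, while the 4 Schwann cell markers summed to 4275 to 5569 and 41.2 to 66.1. The 4 markers of central inhibitory neurons summed to 0.334 to 0.677 in TG and 213 to 240 in Sp5C, the 4 of oligodendrocytes to 29.3 to 65.9 and 431 to 625, and the 4 of astrocytes to 31.9 to 53.3 and 416 to 572. Single libraries carried markers of nearby tissue: 8 pituitary genes summed to 2874 in STG replicate 1 and to at most 51.7 elsewhere, and 10 marrow and neutrophil genes to 877 in CTG replicate 1 and 292 in CTG replicate 3, against 4.0 to 33.7 in the other TG libraries. The part of cell makeup in each difference below was not tested.

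**Figure D1:**
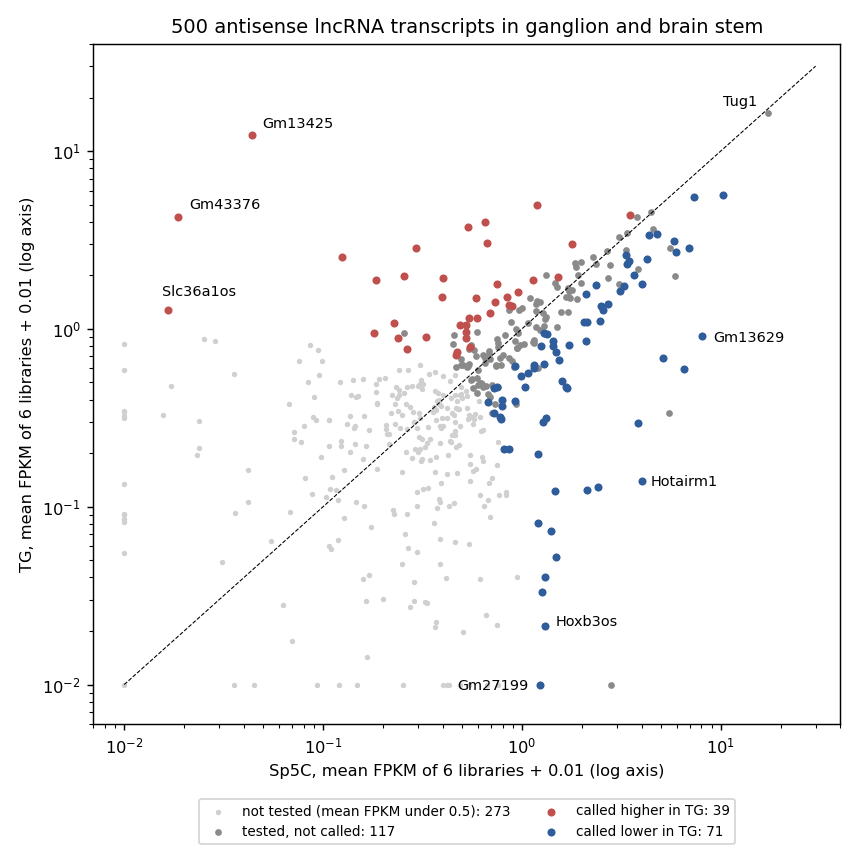
Mean FPKM of each of the 500 antisense transcripts in Sp5C (horizontal) and TG (vertical), 6 libraries each, on log axes after adding 0.01; the dashed line marks equal levels. Red marks the 39 transcripts higher in TG, blue the 71 lower, dark grey those tested but not past the threshold and light grey those under a mean of 0.5 FPKM. Gm13425 and Gm43376 stand far above the line, and Gm13629, Hotairm1, Hoxb3os and Gm27199 far below it.

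The transcript highest in TG over Sp5C was Gm13425 (chr2:31633453-31640589, minus strand), which covers the start of Prdm12, a transcription factor gene needed for the development of pain-sensing neurons. Its lowest, median and highest values were 11.3, 12.3 and 13.3 FPKM in TG and 0.00820, 0.0165 and 0.114 in Sp5C. All TG libraries thus lay far above all Sp5C libraries, a difference of 4.58 ± 0.08 on the log2 scale (SE; limma adjusted p = 3.43e-13). Prdm12 itself was at 40.3 ± 1.83 FPKM in TG against 0.0966 ± 0.0684 in Sp5C (SD over n = 6), a difference of 5.24 ± 0.05 on the log2(FPKM + 1) scale used for protein-coding genes (limma adjusted p = 3.17e-14). The pair shares 200 exonic bases, of 5391 in the antisense transcript.

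Gm43376 lies inside Nbea, the gene of the synaptic trafficking protein neurobeachin, with no shared exon. It ran the other way from its partner. It was at 4.27 ± 0.870 FPKM in TG, and in Sp5C it was listed at 0 in 4 of the 6 libraries and at most at 0.0387 in the rest, a difference of 3.21 ± 0.10 (SE; limma adjusted p = 2.85e-11). Nbea was at 4.21 ± 0.873 FPKM in TG against 33.9 ± 2.18 in Sp5C (difference -2.76 ± 0.08, SE, limma adjusted p = 7.85e-11). The tissues did not overlap for either gene.

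The other 10 named transcripts higher in TG had smaller differences, from 1.13 to 2.31. Gm16365, which covers the end of Fyn, the gene of a Src-family kinase, without a shared exon, was at 2.52 ± 0.300 FPKM in TG against 0.115 ± 0.119 in Sp5C (difference 2.31). Gm13111, which starts 703 bases from the start of the transcription factor gene Prdm16, was at 3.74 ± 0.330 FPKM in TG against 0.528 ± 0.175 in Sp5C (difference 2.06), and Prdm16 was higher too (3.64 ± 0.408 and 1.2 ± 0.345, difference 1.09). Gm29083, inside the semaphorin receptor gene Nrp2, was at 1.87 ± 0.827 FPKM in TG against 0.174 ± 0.282 in Sp5C (difference 1.83), and Nrp2 was also higher in TG (26.8 ± 1.99 and 7.76 ± 1.2, difference 1.67). Values of Gm29083 were uneven, with CTG replicate 1 at 3.46 and CSp5C replicate 1 at 0.743. 1110046J04Rik, inside the protease inhibitor gene Serpinb6a with 66 shared exonic bases, was at 4.98 ± 0.932 FPKM in TG against 1.18 ± 0.336 in Sp5C (difference 1.72), and its partner was at 86.0 ± 7.42 and 10.6 ± 0.910 (difference 2.91). Slc36a1os was listed at 0 in 5 of the 6 Sp5C libraries and stood at 0.812 to 1.49 FPKM in TG. Tspan32os, Gm13523, A330084C13Rik (over the start of Nedd4l, a ubiquitin ligase gene), Tbx3os1 and AA387200 had differences of 1.72, 1.62, 1.43, 1.16 and 1.13. All SDs are over n = 6 libraries, and the tissues did not overlap for any of these, with limma adjusted p-values from 4.48e-09 to 6.38e-05.

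Several of the transcripts lowest in TG lie beside developmental transcription factor genes of the hindbrain and dorsal horn. Hotairm1 (chr6:52158432-52162119, plus strand), in the Hoxa cluster, had lowest, median and highest values of 0, 0.162 and 0.225 FPKM in TG and 3.35, 3.94 and 4.72 in Sp5C. No TG library came near any Sp5C library (difference -2.84 ± 0.12, SE, limma adjusted p = 6.09e-10). Hoxb3os, inside Hoxb3 with 2250 of its 2315 bases over Hoxb3 exons, was at 0.0112 ± 0.0189 and 1.29 ± 0.206 (difference -1.80 ± 0.11, SE, limma adjusted p = 9.61e-09), and Hoxb3 at 0.0387 ± 0.0321 and 10.5 ± 2.45 (difference -3.45). With so much of Hoxb3os shared, its values cannot be told apart from those of Hoxb3 if strand was not used.

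Gm27199 (chr5:120419659-120431767, minus strand), whose start lies 68 bases from that of Lhx5, a LIM homeobox gene of dorsal spinal interneurons, was listed at 0 in all 6 TG libraries and at 0.889 to 1.86 FPKM in Sp5C (limma adjusted p = 9.90e-08). Lhx5 was likewise listed at 0 in 5 of the 6 TG libraries and at 2.13 to 2.86 in Sp5C. Both tested transcripts of C130021I20Rik (chr2:33641331-33646354, plus strand for the longer) were lower in TG. The longer was at 0.286 ± 0.0672 and 3.82 ± 0.825 FPKM (difference -2.44 ± 0.14, SE) and the shorter at 0.119 ± 0.123 and 2.41 ± 0.871 (difference -2.21 ± 0.15, SE; SD over n = 6; limma adjusted p = 5.41e-09 and 4.34e-08). They start 820 and 682 bases from the start of Lmx1b, a homeobox gene of dorsal horn neurons, at 0.230 ± 0.0409 and 3.30 ± 0.561 FPKM (difference -1.80). The tissues overlapped for none of these transcripts or genes.

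A second group lies beside genes of ion channels and transmitter receptors. Gm13629 (chr2:66440896-66511249, plus strand) runs across the end of Scn9a, the gene of the sodium channel Nav1.7 of pain-sensing neurons, and has its own start 56 bases from the start of Scn1a, the gene of the sodium channel Nav1.1. Its lowest, median and highest values were 0.630, 0.900 and 1.22 FPKM in TG and 7.59, 8.01 and 8.54 in Sp5C, with no overlap (difference -2.62 ± 0.10, SE, limma adjusted p = 2.37e-10). Scn9a went the other way, from 0.933 to 1.74 FPKM in Sp5C to 55.5 to 65.0 in TG (difference 4.83 ± 0.09, SE, limma adjusted p = 3.13e-12). Scn1a went the same way as Gm13629, at 30.3 ± 3.62 FPKM in TG against 72.3 ± 3.23 in Sp5C (SD over n = 6; difference -1.24 ± 0.08, SE, limma adjusted p = 4.15e-08). The transcript shares 180 exonic bases with Scn9a.

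Gm9962 has the same layout over genes of GABA-A receptor subunits. It covers the end of Gabra5 and starts 84 bases from the start of Gabrg3. It was at 0.0229 ± 0.0369 FPKM in TG against 1.25 ± 0.232 in Sp5C (SD over n = 6; difference -1.74 ± 0.10, SE, limma adjusted p = 9.60e-09). Gabra5 (6.01 ± 0.673 and 14.7 ± 2.13, difference -1.16) and Gabrg3 (0.199 ± 0.0711 and 3.47 ± 0.511, difference -1.89) were both lower in TG. Gm38562, inside Gabrb1 and sharing no exon with it, was at 0.0300 ± 0.0257 and 1.3 ± 0.328 (difference -1.74), and Gabrb1 at 1.24 ± 0.239 and 13.5 ± 1.39 (difference -2.69). A730060N03Rik, over the start of Cacng2, the gene of the AMPA receptor partner stargazin, differed by -1.30, and Cacng2 by -2.31. Gm26673, over the start of the potassium channel gene Kcna6 with 2355 shared exonic bases, was lower in TG (2.85 ± 0.606 and 6.90 ± 0.536, difference -1.16) where Kcna6 was higher (38.8 ± 3.42 and 27.1 ± 2.42, difference 0.51).

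The rest of the 12 named transcripts lowest in TG had partners of other kinds. Gm13205, inside the zinc finger gene Casz1 with the 122 coding bases printed above, had lowest, median and highest values of 0.322, 0.673 and 0.701 FPKM in TG and 4.89, 5.73 and 8.99 in Sp5C (difference -2.67 ± 0.13, SE, limma adjusted p = 1.83e-09). Casz1 was the opposite, at 10.5 ± 0.837 and 1.16 ± 0.273 (SD, n = 6; difference 2.41). Gm37885, inside the calpain gene Capn2 with 270 shared exonic bases, was also lower in TG (difference -2.06) where its partner was higher (90.5 ± 4.09 and 35.1 ± 1.17, difference 1.34). B230334C09Rik, over the end of Lrrc40, differed by -2.25 and Lrrc40 by -0.37. Gm17634, over the start of the ubiquitin ligase gene Rnf152, differed by -1.75 and Rnf152 by -1.61. Gm26633 starts 160 bases from the start of Acan, the gene of aggrecan, a protein of the nets around some neurons. It differed by -1.84 and Acan by -1.56. The tissues did not overlap for any of the 24 transcripts named as highest or lowest in TG. The transcripts lowest in TG that are given without a p-value, and the genes set beside any of the 24 with a difference and no p-value, passed (limma adjusted p at most 3.26e-05, that of Lrrc40).

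**Figure D2:**
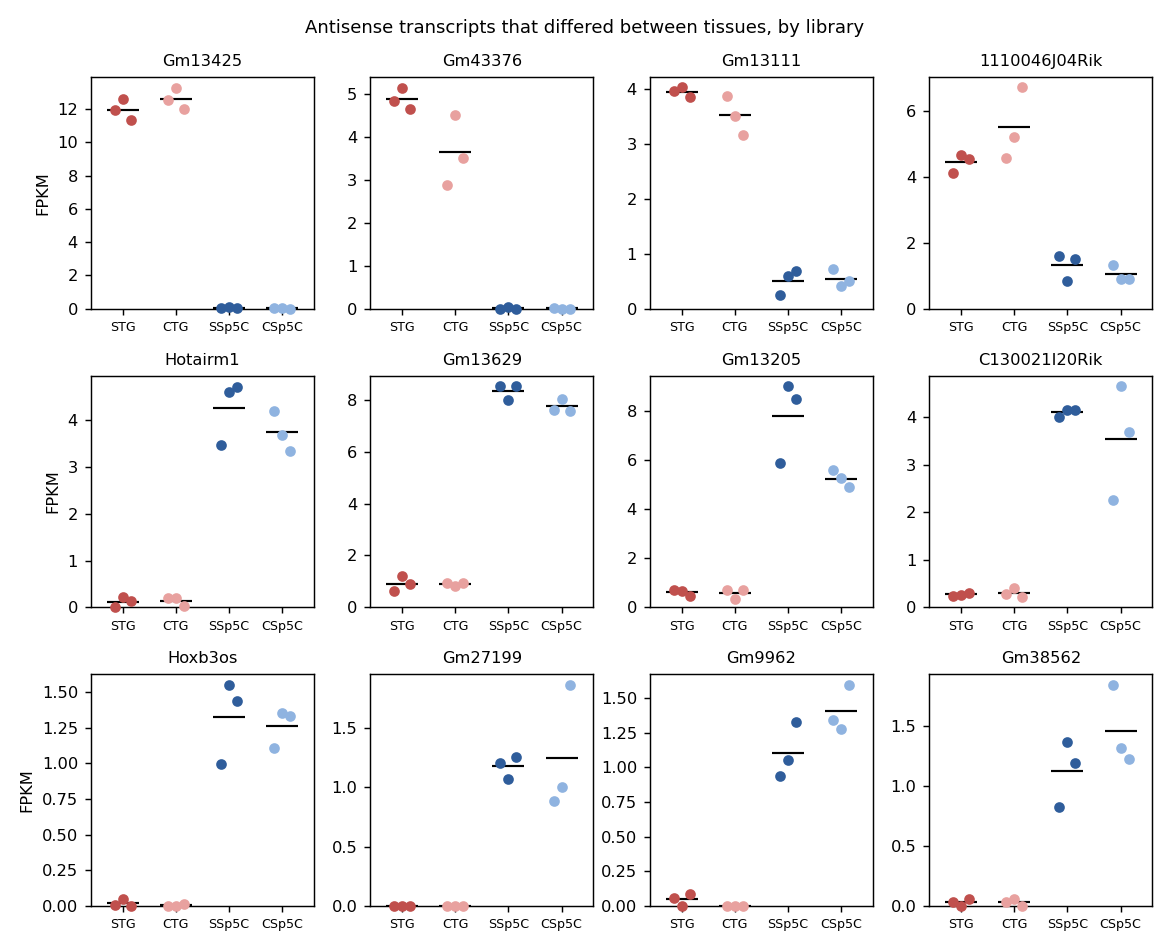
FPKM of 12 antisense transcripts in each library (points) of the 4 groups, with group means as black lines and each vertical axis starting at 0. The top row holds transcripts higher in TG and the other rows transcripts lower in TG; in every panel the 6 TG points and the 6 Sp5C points do not overlap.

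Partners were also grouped into classes by the start of their symbol, to be read against the 28.2% higher and 25.5% lower in TG of all lncRNA transcripts tested. The class of developmental transcription factors holds families such as Hox, Lhx and Zfhx but not Prdm, so Gm13425 over Prdm12, the transcript highest in TG, is not counted in it. Of 15 members with a partner in these families, 5 could be tested: 0 were higher in TG and 3 lower (Hoxb3os, Gm27199 and Zfhx2os), with a median difference of -0.74 against 0.04 over all lncRNAs tested. Zfhx2os, over the end of the homeobox gene Zfhx2 with 2531 shared exonic bases, was at 1.33 ± 0.473 and 2.48 ± 0.327 FPKM (SD, n = 6; difference -0.74, limma adjusted p = 0.000725), and Zfhx2 did not pass (limma adjusted p = 0.0617). The tested transcript of Zeb2os, inside Zeb2, did not pass (1.15 ± 0.194 and 1.31 ± 0.205 FPKM, limma adjusted p = 0.362). Nkx2-2os, Hoxaas3 and Hoxb5os lay under the filter: Hoxb5os was listed at 0 in all TG libraries and at 0.240 to 0.764 FPKM in Sp5C, Hoxaas3 was listed at 0 in 5 TG libraries and stood at 0.514 to 0.940, and Nkx2-2os stood at 0.0157 to 0.0383 and 0.244 to 0.699. Of 19 members beside channels, transmitter receptors or solute carriers, 9 were tested, 0 were higher and 6 lower, with a median of -1.16. Of the 15 partners of that class tested, 5 were higher and 9 lower, against 36.2% and 35.0% of all genes tested. Of 3 members beside axon guidance and adhesion genes, 2 were tested: Gm29083 was higher, and A830092H15Rik, over the start of the neuroligin gene Nlgn1, was lower (-1.16, limma adjusted p = 1.22e-05), as was Nlgn1 (-1.75, limma adjusted p = 2.35e-10). No member had a partner among the circadian clock genes listed.

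Of 4 members beside imprinted genes, 3 were tested, 1 higher in TG, 1 lower and 1 not called. Airn runs against the start of Igf2r, the gene of a growth factor and lysosomal enzyme receptor. One of its transcripts was higher in TG (0.954 ± 0.278 and 0.511 ± 0.143 FPKM, SD, n = 6; difference 0.52 ± 0.13, SE, limma adjusted p = 0.00368), and 2 longer ones did not pass (differences 0.32 and 0.30, limma adjusted p = 0.163 and 0.208). Kcnq1ot1 (chr7:143203458-143296549, minus strand), a single-exon RNA of 93092 bases inside the potassium channel gene Kcnq1, was lower in TG at 2.39 ± 0.659 FPKM against 3.43 ± 0.784 (difference -0.45 ± 0.12, SE, limma adjusted p = 0.00609), although the tissues overlapped. In the S libraries alone its difference was -0.01 (limma adjusted p = 0.960) and in the C libraries alone -0.88 (limma adjusted p = 0.00417). The called Airn transcript had 0.71 in the S libraries (limma adjusted p = 0.00609) and 0.33 in the C libraries (limma adjusted p = 0.224). Kcnq1 stood at 0.474 ± 0.237 and 0.289 ± 0.127 FPKM and was not tested. Kcnq1ot1 shares 121 exonic bases with it.

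Over all pairs, the tissue difference of an antisense transcript went only loosely with that of the gene it overlaps. Both sides could be tested in 136 pairs, across which the differences correlated at Pearson's r = 0.20 and Spearman's rho = 0.13. These points share the same 12 libraries, and some share a partner. Of 261 partners tested, 91 were higher in TG (36.2% of the 13081 protein-coding genes tested) and 99 lower (35.0%). Both sides passed in 55 pairs: 36 went the same way and 19 opposite ways. With 1 transcript per gene, these were 35 and 15 of 50. In 17 of the 19 opposite pairs the antisense transcript was lower in TG and the partner higher. Gm43376 with Nbea and Gm16365 with Fyn were the other 2.

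The counts were then taken by the layout of the pair. Of transcripts over the partner's start, 74 pairs were tested and r was 0.62 (rho 0.28), or 0.41 without Gm13425. In 33 of them both sides passed, 25 the same way and 8 opposite. Over the partner's end, r was -0.31 (rho -0.00) in 33 pairs, or -0.01 without Gm13629, and of 11 pairs with both sides past the threshold 4 went the same way and 7 opposite. These include 4 transcripts of 1 gene, E130307A14Rik, that were lower in TG where Traf3ip2 was higher. Inside the partner, 27 pairs were tested and of 11 with both past the threshold 7 went the same way. Whether these counts differ by layout was not tested.

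Taking instead the gene on the other strand whose start lies nearest, within 1000 bases of the transcript's own start, gave 120 tested pairs. This choice was made after the values of Gm13629 had been seen, and its pair with Scn1a is kept in the counts below. No such counts are given for other lncRNA classes to read these against. Across the 120 pairs r was 0.69 and rho 0.43, or r = 0.58 without Gm13425. Both sides passed in 48, over 42 neighbours, and 39 of these pairs went the same way: 11 higher in TG and 28 lower. In all 9 opposite pairs the antisense transcript was lower in TG and the neighbour higher. Where the transcript overlapped no gene, 12 of 12 went the same way, over 11 neighbours that include Lmx1b, Acan, Prdm16 and Fam129b. Where it overlapped a gene other than the neighbour at its start, 10 of 12 did, over 8 neighbours. Among the 10 were Gm13629 with Scn1a, Gm9962 with Gabrg3, and 3 transcripts of E130307A14Rik with Rev3l, the gene of a DNA polymerase subunit. A further 3 were transcripts of 4933431E20Rik with Gstm5. Transcripts of the same gene are thus counted here as separate pairs. Where the neighbour was itself overlapped, 17 of 24 went the same way.

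**Figure D3:**
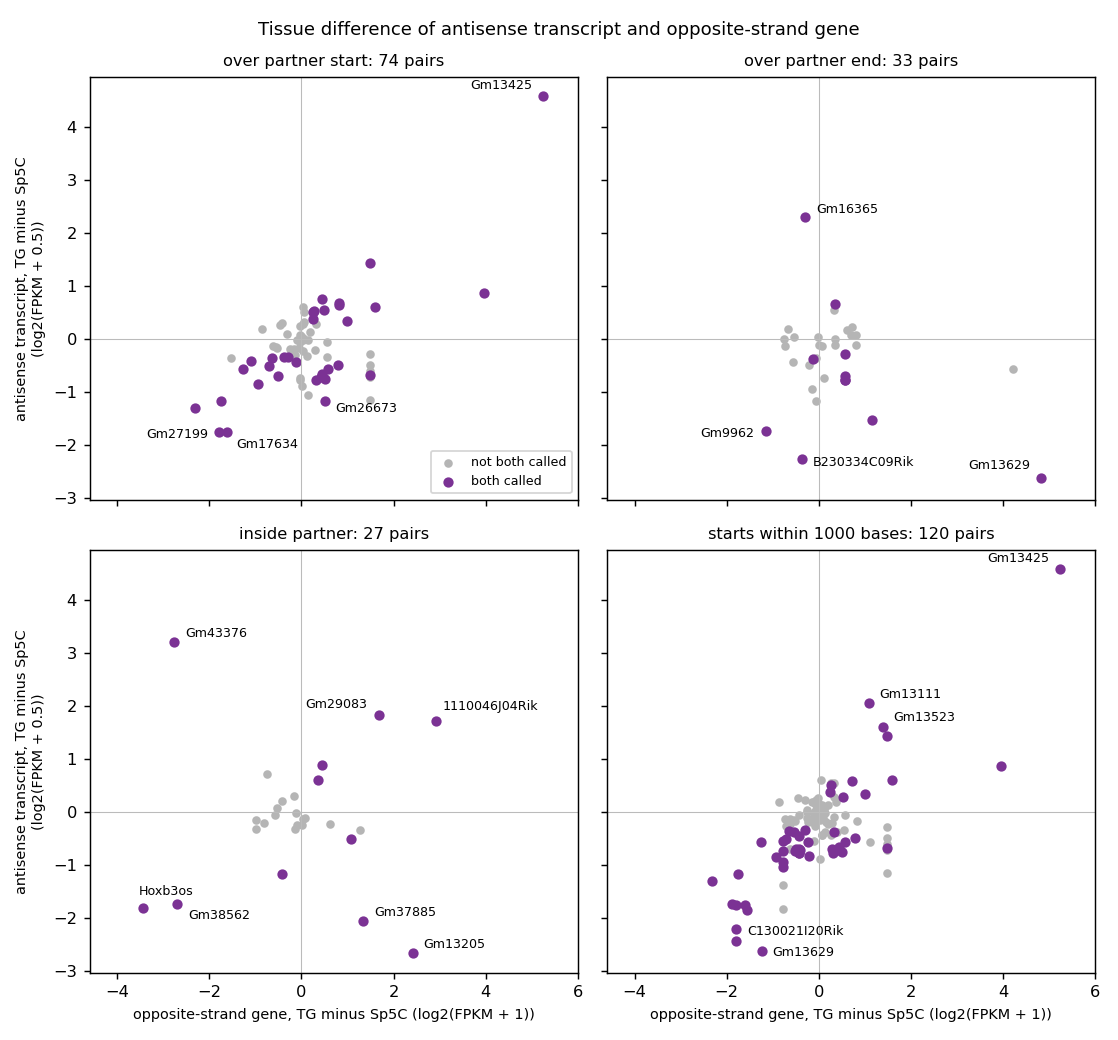
Tissue difference (TG minus Sp5C) of antisense transcripts, on the vertical axis in log2(FPKM + 0.5), against that of the opposite-strand gene, on the horizontal axis in log2(FPKM + 1). The first 3 panels pair each transcript with the gene it overlaps, by layout; the last pairs it with the gene whose start lies within 1000 bases, so some pairs appear in more than 1 panel. Purple points passed on both sides. Gm13629 lies at the lower right when paired with Scn9a and at the lower left when paired with Scn1a.

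Transcripts of the same gene often differed in their call. Of 24 genes with 2 or more tested transcripts, 7 had differences on both sides of 0, among them Gm16365 (-0.05 and 2.31), but 0 had calls in both directions between the tissues, 4 had every transcript called the same way, 9 had some called and 11 none. Rab10os and C130021I20Rik had all tested transcripts lower in TG, and F630028O10Rik and 9530026P05Rik had both higher. For the more abundant transcript of F630028O10Rik the tissues overlapped. Its high values were in CTG, at 5.05 ± 4.50 FPKM against 0.667 ± 0.383 in STG (SD over n = 3). Summed over 6 transcripts, Rab10os stood at 3.37 to 5.22 FPKM in TG and 8.28 to 10.1 in Sp5C. The median coefficient of variation within groups was 22.9% for the 140 members that are the only transcript of their gene, 32.9% for the 68 members of genes with 2 or more tested transcripts, and 21.5% for the 24 such genes after their transcripts were summed. Gm26782, over the start of the telomerase component gene Tep1, was the extreme case. Its most abundant transcript was 0, 5.72 and 1.10 FPKM in STG, 9.88, 0.315 and 0.0495 in CTG, 7.86, 9.21 and 0 in SSp5C and 16.3, 0 and 0 in CSp5C, and the sum over its 7 transcripts ran from 1.78 to 51.2. Those libraries were high or low whatever their group.

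RefSeq promoter windows were found for 199 of the 388 genes, of which 122 had the RefSeq start within 50 bases of a member's start. Their median GC content was 60.2% with 15.5 CpG dinucleotides, against 53.0% and 7 over the 32544 promoters of the table. Genes were also classed by the tissue call of their most abundant transcript alone. Median GC was 65.5% for the 24 where it was lower in TG and 56.0% for the 9 where it was higher. For the 28 where it was tested and not called, the median was 63.8%. On either strand, TATAAA was present in 5.74% of the 122 and 13.6% of all windows, CCAAT in 33.6% and 37.4%, CAGCTG in 19.7% and 16.4%, and TGATNNAT in 5.74% and 8.79%. By the same classes of genes, CCAAT was present in 12 of the 24 windows of the lower class, 4 of the 9 of the higher and 8 of the 28 not called. These motifs do not contain each other, and a match is only a match of letters.

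Comparing C with S in the ganglion, no antisense transcript passed: 0 of 203 tested (limma, 6 libraries), against 0.131% of all 1522 lncRNA transcripts tested. At an unadjusted p under 0.05, 21 members (10.3%) were counted, against 21.9% of all. The 3 STG and 3 CTG values did not overlap in 33 members, 3 of them higher in CTG and 30 lower, or 16.3% against 31.2% of all. The members leaned downward, with 141 below 0 and 62 above and a median of -0.12. The medians of lincRNAs and of processed transcripts, at -0.13 and -0.15, lay close to that of the members. The whole lncRNA table leaned further, with a median of -0.23, and the TEC class had -0.29, whereas protein-coding genes had -0.01. After scaling each library on the lncRNA table, which takes up that shift, the median of the members was 0.08, with 117 above 0 and 81 below of 198, and quantile normalization gave 130 above and 73 below. The direction over the members as a whole thus depends on the scaling. Leaving out any 1 library, the one with pituitary markers and either one with marrow markers included, again gave 0 calls. No such fit left out both CTG libraries with marrow markers.

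The smallest p-value among members lower in CTG belonged to 9130410C08Rik (chr4:114817161-114902859, minus strand), which spans Gm12830 without a shared exon. Its values were 1.06, 1.13 and 1.29 FPKM in STG and 0.591, 0.589 and 0.426 in CTG. All STG libraries were above all CTG libraries (difference -0.68 ± 0.15, SE, limma adjusted p = 0.138). It was the 1 member to pass when the fit used all 12 libraries, with a limma adjusted p of 0.0371, and over all alternatives its adjusted p ran from 0.0371 to 0.437. Gm13563, over the end of Entr1, had 0.824, 0.933 and 0.856 FPKM in STG and 0.493, 0.486 and 0.485 in CTG, again without overlap (difference -0.47 ± 0.13, SE, limma adjusted p = 0.174). A transcript of 4933431E20Rik and Phf2os1, over the start of the histone demethylase gene Phf2, had differences of -0.50 and -0.52 (limma adjusted p = 0.174 and 0.176). After the scaling on the lncRNA table, all 4 stayed below 0.

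Higher in CTG, none passed either. F630028O10Rik, on the X chromosome (chrX:96239966-96243636, plus strand), had 1.10, 0.394 and 0.502 FPKM in STG and 10.1, 1.41 and 3.67 in CTG. The CTG values lie above the STG values, narrowly for replicate 2 and far for replicate 1 (1.96 ± 0.64, SE, limma adjusted p = 0.193). The order of the CTG libraries is that of their marrow and neutrophil markers, which summed to 877, 12.6 and 292 in CTG replicates 1, 2 and 3, and the part of such cells in the result was not tested. Without CTG replicate 1 the difference was 1.32 (limma adjusted p = 0.254). The other tested transcript of F630028O10Rik had a difference of -0.57. A transcript of 9530026P05Rik, over the start of the metalloprotease gene Adamts9, had 0.584, 0.0835 and 0 FPKM in STG and 0.427, 1.24 and 0.874 in CTG, with overlap (difference 0.94, limma adjusted p = 0.193). 1110046J04Rik differed by 0.27 and a minor transcript of Gt(ROSA)26Sor by 0.54 (limma adjusted p = 0.315 and 0.316). The last had 1 high library, CTG replicate 2, in which the main transcript of the same gene was low. Summed over transcripts, the gene differed by -0.23, the other direction.

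In the brainstem nucleus, 0 of 242 members passed (limma, 6 libraries), against 0.0626% of all 1597 tested. At an unadjusted p under 0.05 there were 13 (5.37%), against 8.70% of all, and 18 members did not overlap between SSp5C and CSp5C (7.44%, against 14.8% of all). Members were split evenly, 121 above 0 and 121 below, with a median of -0.00, while the whole table had 0.13. By class, the median was 0.06 for lincRNAs, 0.07 for processed transcripts and 0.22 for TEC. After scaling on the lncRNA table, the median of the members was -0.11, with 78 above 0 and 169 below, and quantile normalization gave 74 above and 168 below. Gm12239, which spans Nmur2, the gene of a neuromedin U receptor, without a shared exon, had 0.458, 0.469 and 0.465 FPKM in SSp5C and 1.11, 0.858 and 1.12 in CSp5C and was listed at 0 in all 6 TG libraries. All CSp5C values were above all SSp5C values (difference 0.66 ± 0.14, SE, limma adjusted p = 0.522, from 0.225 to 0.837 over the alternatives).

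The other members with small p-values in Sp5C had the same adjusted p. Zfp652os (difference 0.51), Gm17146 (0.48) and Gm37885 (0.57) had higher values in CSp5C, and Gm16794 (-0.54), Gm10687 (-0.54), Gm13205 (-0.51) and Gm26633 (-0.44) lower ones (limma adjusted p = 0.522 for each). Gm16794, over the end of the DNA damage kinase gene Atr, had 1.51, 1.47 and 1.43 FPKM in SSp5C and 0.946, 0.753 and 0.870 in CSp5C. Gm10687, over the start of the cell adhesion gene Mcam, had 0.926, 1.19 and 1.12 FPKM in SSp5C and 0.617, 0.594 and 0.538 in CSp5C. For neither did the letters overlap. Marker sums of other cells are given beside these. The 3 spermatid genes summed to 5.36 to 7.31 in SSp5C and were listed at 0 in CSp5C. In TG the same genes did not follow the letter, at 0, 7.81 and 6.01 in STG and 7.31, 5.95 and 0 in CTG. The 4 choroid plexus genes overlapped, at 1.08, 12.7 and 9.16 in SSp5C and 20.6, 3.75 and 54.8 in CSp5C. The part of such cells in these results was not tested. Partner genes did not pass in either tissue: 0 of 249 in TG, against 0.00775% of 12906 genes, and 0 of 259 in Sp5C, against 0.0315% of 12690. At an unadjusted p under 0.05, 12 partners (4.82%) in TG and 14 (5.41%) in Sp5C were counted, against 4.70% and 5.02% of all genes.

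Leaving out CSp5C replicate 1 brought 2 transcripts of 4933431E20Rik past the threshold. The transcripts of this gene, named here after their values were seen, shifted against each other in CSp5C replicates 2 and 3. The longest, of 5407 bases, was at 11.6, 12.7 and 12.2 FPKM in SSp5C and 15.2, 5.22 and 4.86 in CSp5C. Another, of 3845 bases, was at 0, 8.54 and 8.14 in CSp5C and listed at 0 in the other 9 libraries. One of 2358 bases was at 0.354, 0.420 and 3.23 in SSp5C and 0.356, 14.2 and 14.5 in CSp5C. In replicates 2 and 3 of CSp5C the longest was thus low and both shorter ones high, while replicate 1 lay near the SSp5C values. With replicate 1 left out, the longest differed by -1.20 ± 0.12 (SE, limma adjusted p = 0.00550) and the one of 3845 bases passed too (limma adjusted p = 4.37e-06), and with it in neither passed. Summed over the 10 transcripts, the gene stood at 21, 23.0 and 24.5 FPKM in SSp5C and 24.2, 35.5 and 35.6 in CSp5C. How reads were divided among these overlapping transcripts was not tested.

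**Figure D4:**
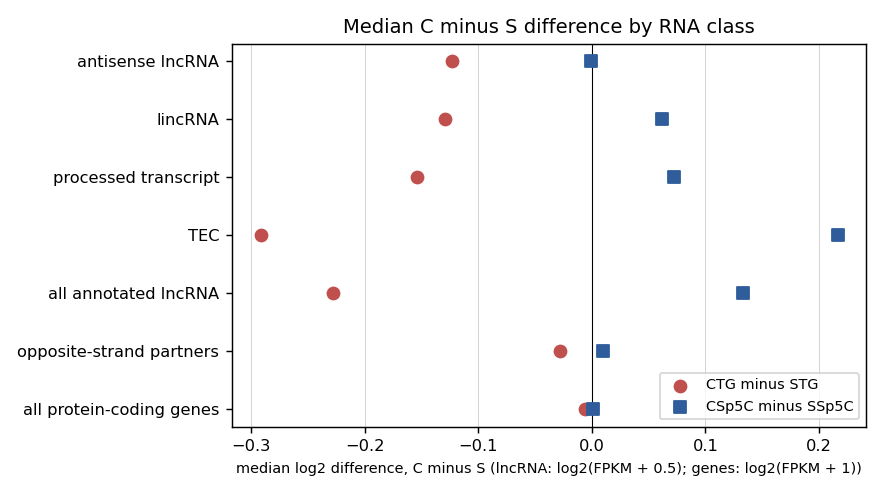
Median difference C minus S (log2 scale) of each class of RNA tested, for TG (red circles) and Sp5C (blue squares). Antisense transcripts lie at -0.12 in TG and -0.00 in Sp5C, less far from 0 than the TEC class at -0.29 and 0.22, and protein-coding genes lie at -0.01 and 0.00.

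No member passed the test of whether the C minus S effect differs between the tissues: 0 of 227, against 0% of 1611 (limma, all 12 libraries). At an unadjusted p under 0.05 there were 15 members (6.61%), against 29.4% of all. The smallest p-values had opposite signs of effect in the tissues. Kcnq1ot1 had 3.42, 2.47 and 2.83 FPKM in STG and 2.01, 2.06 and 1.57 in CTG, all STG above all CTG, and 2.55, 2.83 and 3.40 FPKM in SSp5C and 3.06, 4.13 and 4.58 in CSp5C, with overlap. The difference of effects was -0.87 ± 0.24 (SE, limma adjusted p = 0.0780, from 0.0371 to 0.300 over the alternatives). Gm13563 had -0.76 ± 0.20 (SE, limma adjusted p = 0.0741, from 0.0477 to 0.438) and 4732471J01Rik -0.69 ± 0.19 (SE, limma adjusted p = 0.0801). By class, the median was -0.18 for lincRNAs, -0.21 for processed transcripts and -0.51 for TEC. The median over all lncRNAs was -0.37 and over the members -0.09. Scaled on the lncRNA table, these became -0.08 and 0.19, with 159 members above 0 and 68 below against 87 and 140 unscaled, and the 3 values became -0.49, -0.51 and -0.40, with limma adjusted p of 0.253, 0.279 and 0.279. Without CSp5C replicate 1, 6 members passed, 1 with the higher effect in TG and 5 with the lower, among them Kcnq1ot1 (-1.02 ± 0.23, SE, limma adjusted p = 0.0371). Of the 6, 3 were transcripts of 4933431E20Rik, described above, including the 1 with the higher effect. The share of all lncRNA transcripts that passed in that fit is not given here.

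**Figure D5:**
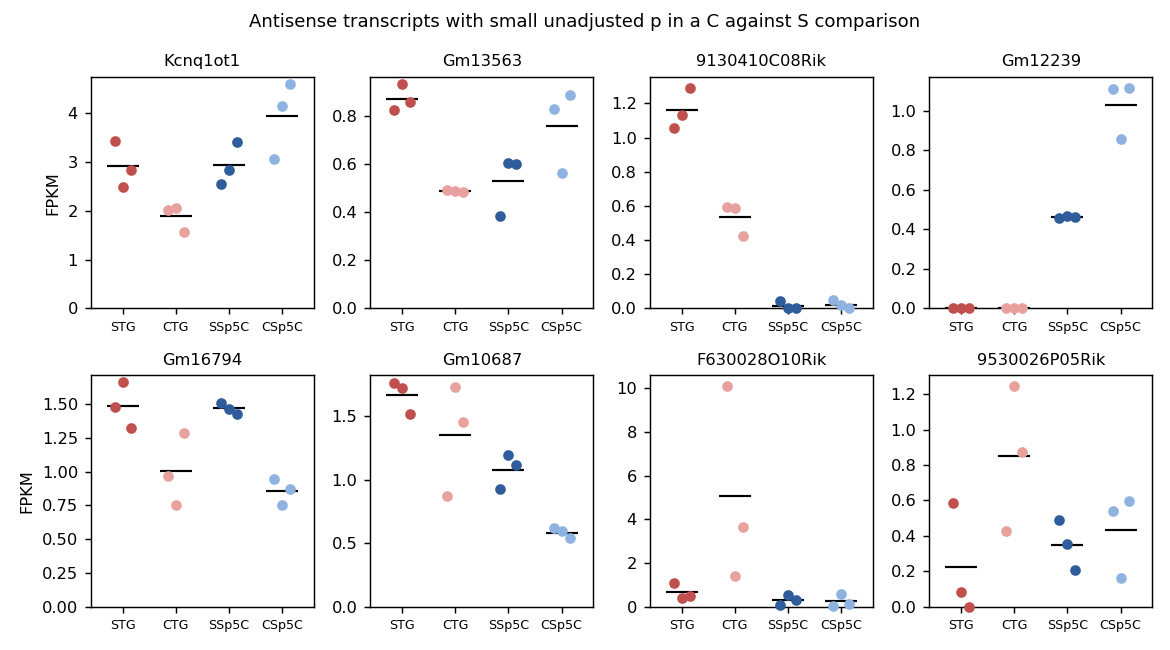
FPKM of 8 antisense transcripts with small unadjusted p-values in a C against S comparison, in each library (points) with group means (black lines). In TG, 9130410C08Rik and Gm13563 have all STG points above all CTG points; in Sp5C, Gm12239 has all CSp5C points above all SSp5C points, and F630028O10Rik has 1 high point, CTG replicate 1. None passed after adjustment.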

How the data were processed

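Total RNA from TG and Sp5C was depleted of ribosomal RNA and made into strand-marking libraries, per the labels' protocols. The submitters' processing notes name HISAT2, StringTie 1.3.1 and Cuffdiff 2.1.1; build and annotation: not given in the sources used here. Values are FPKM per transcript, as deposited by the authors, so depth is unknown and no counting interval is given.

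Coordinates, partners and transcript sequences are those of GENCODE M21 (GRCm38), joined by transcript identifier, in place of the planned deposited coordinates, which were not used. Tests used limma 3.58.1 (R 4.3.3) with trend and robust moderation, on log2(FPKM + 0.5) for lncRNAs with a mean of at least 0.5 FPKM, and on log2(FPKM + 1) for protein-coding genes, summed over transcripts, with a mean of at least 1. The tissues and the difference of effects used 12 libraries, C against S the 6 of a tissue. P-values are two-sided and Benjamini-Hochberg adjusted over all features tested, with a threshold of 0.05. The code was tested on simulated data.

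Named transcripts were the 10 most abundant, the 12 highest and 12 lowest tissue differences that passed without overlap, the 4 smallest p-values in each direction of each C against S comparison, the 3 smallest for the difference of effects, fixed symbols of developmental and imprinted loci, up to 4 per partner class, and the partners of all of these. Others are named only where a result turns on them. Members and lists were chosen with earlier results of these data known. Alternatives were other pseudocounts, filters, scalings and moderation, a replicate block, transcripts summed by gene, transcripts listed at 0 throughout a group left out, partners by symbol, 1 letter or all 12 libraries, and each library left out. Pairing with the nearest opposite start and leaving out the farthest pair were added after seeing the data. A few items are not reported here.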

Additional observations from a re-analysis of the deposited data

Results flagged for a closer look

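In 15 of 109 sets of 6 libraries of a tissue, looked at for 56 antisense transcripts, 1 library stood apart from the other 5. The cut-off used sets about 1 in 20 such sets apart only where values are independent and normally distributed. These sets hold unlogged FPKM values and pool S and C libraries. In those of Slc36a1os in Sp5C and Hoxaas3 in TG, the other 5 libraries listed no signal, so any trace stood apart. That rate therefore cannot serve as a yardstick here, and whether 15 of 109 exceeds chance was not tested.

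CTG replicate 1 stood apart in 4: it was high for F630028O10Rik (10.1 FPKM, the others 0.394 to 3.67) and Gm29083 (3.46, the others 1.23 to 1.95), and low for Gm26673 (1.70, the others 2.85 to 3.48) and Gm10687 (0.869, the others 1.46 to 1.76). CTG replicate 2 was low for the main transcript of Gt(ROSA)26Sor (2.21, the others 4.60 to 5.58), high for the minor one (1.64, the others 0.287 to 0.571) and high for Gm17634 (0.145, the others 0.0195 to 0.0623). STG replicate 2 was high for Hoxb3os (0.0487, the others at most 0.00960), and STG replicate 3 for Hoxaas3 (0.0697, the others listed at 0).

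In Sp5C, CSp5C replicate 1 was high for Gm29083 (0.743, the others at most 0.110) and Slc36a1os (0.0392, the others listed at 0). SSp5C replicate 2 was high for Gm13425 (0.114, the others 0.00820 to 0.0334) and Gm43376 (0.0387, the others at most 0.0130). SSp5C replicate 1 was high for the shorter transcript of C130021I20Rik (4.06, the others 1.67 to 2.54), and SSp5C replicate 3 for a transcript of 4933431E20Rik (1.87, the others 0.920 to 1.05).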

How the results depend on the processing

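The 24 transcripts named for their tissue difference kept their direction and call in all 613 fits under the alternatives run. The counts moved with the filter: with none, 89 were higher and 143 lower in TG of 499 tested, and with a mean of at least 1 FPKM 22 and 42 of 116. The shares of all lncRNA transcripts under these filters are not given. C libraries alone gave 25 higher. Leaving out each library gave 36 to 41 higher and 63 to 72 lower, and partners 86 to 92 and 93 to 100. Partners taken from symbols gave 12 higher and 17 lower of 43. In TG, C against S had 1 member lower in the fit of all 12 libraries and 0 without any 1 library. In Sp5C, leaving out 1 library gave 0 to 1 higher and 0 to 1 lower, the calls coming without CSp5C replicate 1. The difference of effects had 0 to 1 higher and 0 to 5 lower, again only without that library, and 1 lower (Gm13563) with transcripts summed. No partner passed C against S without any 1 library. The minor Gt(ROSA)26Sor transcript turned to -0.23 with transcripts summed. The cause of these changes was not tested.

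With the replicate number as a block, the tissue contrast gave 40 higher and 71 lower, partners 90 and 102, and every C against S comparison and the difference of effects 0 and 0. Deviations of same-numbered libraries correlated at 0.195 to 0.409 between CTG and CSp5C, each CTG library best with its own number, and at -0.094 to 0.295 between the other groups compared. With most pairs below 0.1 in those, the numbers were not taken to pair the libraries, and the values for CTG and CSp5C are a hint from the data. The depth is unknown, and most members lie near or under the filter, which limits what a test of 3 against 3 libraries can detect.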

Other observations

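Some antisense transcripts were listed at 0 throughout a tissue. At unknown depth this does not show that they are absent there, and the share over all lncRNA transcripts was not counted. There were 16 members listed at 0 in all 6 TG libraries, among them Gm27199 beside Lhx5, Gm12239 over Nmur2 and Hoxb5os in the Hoxb cluster. Only 2 of these 16 reached the mean needed for a test. There were 13 listed at 0 in all 6 Sp5C libraries, and none of these reached the mean needed for a test. One member, listed at 0 in every library, is in both counts.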
